A study of Mus musculus with 32 samples.

Results

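Pitx1 and 4 further genes known from the lining of the mouth, Sox2, Krt4, Krt13 and Krt76, were followed through mouse epidermal organoid culture. They are 5 of the 19970 gene names in the count files, and all 5 were found by name. Pitx1 was chosen because these same data had shown it high in culture, so its levels in organoids against tissue and over time in culture are given as a description, with no test. The other 4 were chosen by name, with earlier results of these data known. The question put to them was whether they rise with Pitx1.

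Pitx1 encodes a homeodomain transcription factor that marks the embryonic hindlimb, the pituitary primordium and the ectoderm of the early mouth. Sox2 encodes an HMG-box factor of progenitor cells in the tongue, palate and oesophagus, and in hairy skin it is known from dermal papillae and Merkel cells. Krt4 and Krt13 are the type II and type I keratins that pair in the suprabasal layers of non-cornified mouth and oesophagus lining, and Krt76 is a suprabasal keratin of the palate and gums. The suprabasal keratins of epidermis are Krt1 and Krt10, and its basal keratins are Krt5 and Krt14.

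All 32 libraries came from Bl/6 mice. Unpassaged organoids, taken on day 7 of culture, gave 5 libraries, 1 in each of 5 media: forskolin, forskolin with Fgf10, forskolin with Fgf1, forskolin with a TGF-beta inhibitor, and the inhibitor alone. Organoids passaged 7 to 12 times, in culture for up to 3 months and called early, gave 12 libraries, also on day 7: 4 in forskolin with Fgf10, 2 in forskolin with Fgf1, 4 in forskolin with the inhibitor and 2 in the inhibitor alone. Organoids passaged 23 to 30 times, in culture for up to 6 months and called late, gave 6 libraries, all in forskolin with Fgf1 and harvested on day 7 after their last passage. Tissue gave 3 libraries each of interfollicular epidermal cells sorted as Itga6+ and Sca1+, of anagen (growing) hair follicles, and of follicles in which anagen and telogen (resting) ones were mixed. Forskolin raises cyclic AMP, and Fgf1 and Fgf10 are fibroblast growth factors. The labels do not say which libraries came from separate animals or cultures, so the p-values measure the spread between these libraries. Each library is bulk RNA, in which fewer cells of a type and less RNA per cell cannot be told apart.

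Library totals without spike-ins ran between 412582 and 3351435 counts, with a median of 1505354, and levels are given as counts per 1000000 counts of that total (CPM). The skin labels were checked against their markers. Sorted epidermis held 9418, 8162 and 12330 CPM of Krt5 and 6626, 7718 and 7927 CPM of Krt14, and the 7 inner root sheath genes summed to 40400 to 60340 CPM in anagen follicles, 0 to 36.8 CPM in organoids and 0 in sorted epidermis. Among late organoids, replicates 1 to 3 stood apart from replicates 4 to 6 in genes of the cornified layers. The libraries fell into 11 source tables, sets with the same list of genes. Late, early and tissue libraries share no source table with each other, so the table and the group cannot be told apart in late against early organoids or in organoids against tissue. Only the unpassaged libraries share a table with 2 of the early ones.

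Promoters are shown for the members and for 2 of the oral genes that rose with passaging, so that the letters can be read beside the levels that follow. RefSeq (GRCm38.p6) gave a 300-base window, 250 bases before to 50 after the gene's start, for 3 of the 5 members, Sox2, Krt13 and Krt76. Each is written in the direction of transcription. Capitals mark a match to the PITX core TAATCC, read as GGATTA on the other strand, or to the SOX core ACAAAG, read as CTTTGT on the other strand. The motifs do not overlap in the windows shown. The Sox2 window is chr3:34649745-34650044 on the plus strand, and RefSeq starts Sox2 upstream of the start in GENCODE. The Krt13 window shown is chr11:100121517-100121816, the Krt76 window chr15:101892871-101893170, the Sprr3 window chr3:92458671-92458970 and the Tmprss11a window chr5:86468941-86469240, all on the minus strand.
Sox2: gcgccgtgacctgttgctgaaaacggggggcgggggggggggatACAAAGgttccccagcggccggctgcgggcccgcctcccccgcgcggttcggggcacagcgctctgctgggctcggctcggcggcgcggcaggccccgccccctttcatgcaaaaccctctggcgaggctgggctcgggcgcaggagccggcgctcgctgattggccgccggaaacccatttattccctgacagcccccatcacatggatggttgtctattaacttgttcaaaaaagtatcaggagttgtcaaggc
Krt13: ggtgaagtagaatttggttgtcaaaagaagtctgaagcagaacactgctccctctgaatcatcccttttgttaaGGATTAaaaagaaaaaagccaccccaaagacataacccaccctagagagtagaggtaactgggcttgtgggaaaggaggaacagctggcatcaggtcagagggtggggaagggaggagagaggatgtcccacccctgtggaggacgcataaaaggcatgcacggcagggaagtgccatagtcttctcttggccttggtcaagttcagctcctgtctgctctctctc
Krt76: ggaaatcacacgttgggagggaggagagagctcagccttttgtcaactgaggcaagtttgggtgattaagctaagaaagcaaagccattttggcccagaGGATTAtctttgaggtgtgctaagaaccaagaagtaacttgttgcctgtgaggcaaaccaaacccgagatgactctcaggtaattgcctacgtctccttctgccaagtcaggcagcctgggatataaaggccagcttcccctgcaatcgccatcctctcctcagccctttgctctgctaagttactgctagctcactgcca
Sprr3: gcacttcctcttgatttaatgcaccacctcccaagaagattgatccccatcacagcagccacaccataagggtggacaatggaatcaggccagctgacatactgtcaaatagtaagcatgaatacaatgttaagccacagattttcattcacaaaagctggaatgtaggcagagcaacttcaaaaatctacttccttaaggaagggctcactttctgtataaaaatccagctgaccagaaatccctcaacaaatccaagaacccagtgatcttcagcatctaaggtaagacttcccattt
Tmprss11a: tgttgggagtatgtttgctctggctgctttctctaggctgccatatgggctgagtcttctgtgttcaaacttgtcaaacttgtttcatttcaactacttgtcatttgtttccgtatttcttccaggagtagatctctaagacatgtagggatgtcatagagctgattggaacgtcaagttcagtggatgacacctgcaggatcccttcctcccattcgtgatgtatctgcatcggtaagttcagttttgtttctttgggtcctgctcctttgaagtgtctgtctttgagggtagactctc
The Krt13 and Krt76 windows each hold GGATTA once, starting at base 75 and at base 100, and the Sox2 window holds ACAAAG once, at base 45. A second RefSeq window of Krt13, chr11:100120528-100120827, holds neither motif. The PITX core lay in 7.06% and the SOX core in 18.7% of all 32851 RefSeq promoter windows of this length, and the Sprr3 and Tmprss11a windows held neither. Of the other oral genes that rose with passaging, Tgm3 held the SOX core once, as CTTTGT at base 13 of its window. The windows of Krt78 and Tmprss11d held neither motif. These matches are letters in a window and describe no binding.

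Pitx1 was listed in all 23 organoid libraries and in none of the 9 tissue libraries. The gene lies at chr13:55825051-55836192 on the minus strand (GRCm38, GENCODE M21). In unpassaged organoids it stood at 6.12 CPM with forskolin, 7.996 with Fgf10 added, 15.6 with Fgf1 added, 11.1 with the inhibitor added and 5.39 CPM with the inhibitor alone, which rest on 10 to 23 counts a library. In early organoids the lowest library had 41.8 CPM, the median was 193 CPM and the highest had 411 CPM. The 6 late libraries had 153, 417, 318, 613, 746 and 755 CPM. Every early library lay above every unpassaged one, and the late range overlapped the upper part of the early range. The stage means were 9.23 ± 4.16 CPM (SD, n = 5) in unpassaged, 182 ± 104 CPM (SD, n = 12) in early and 500.3 ± 244 CPM (SD, n = 6) in late organoids.

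**Figure D1:**
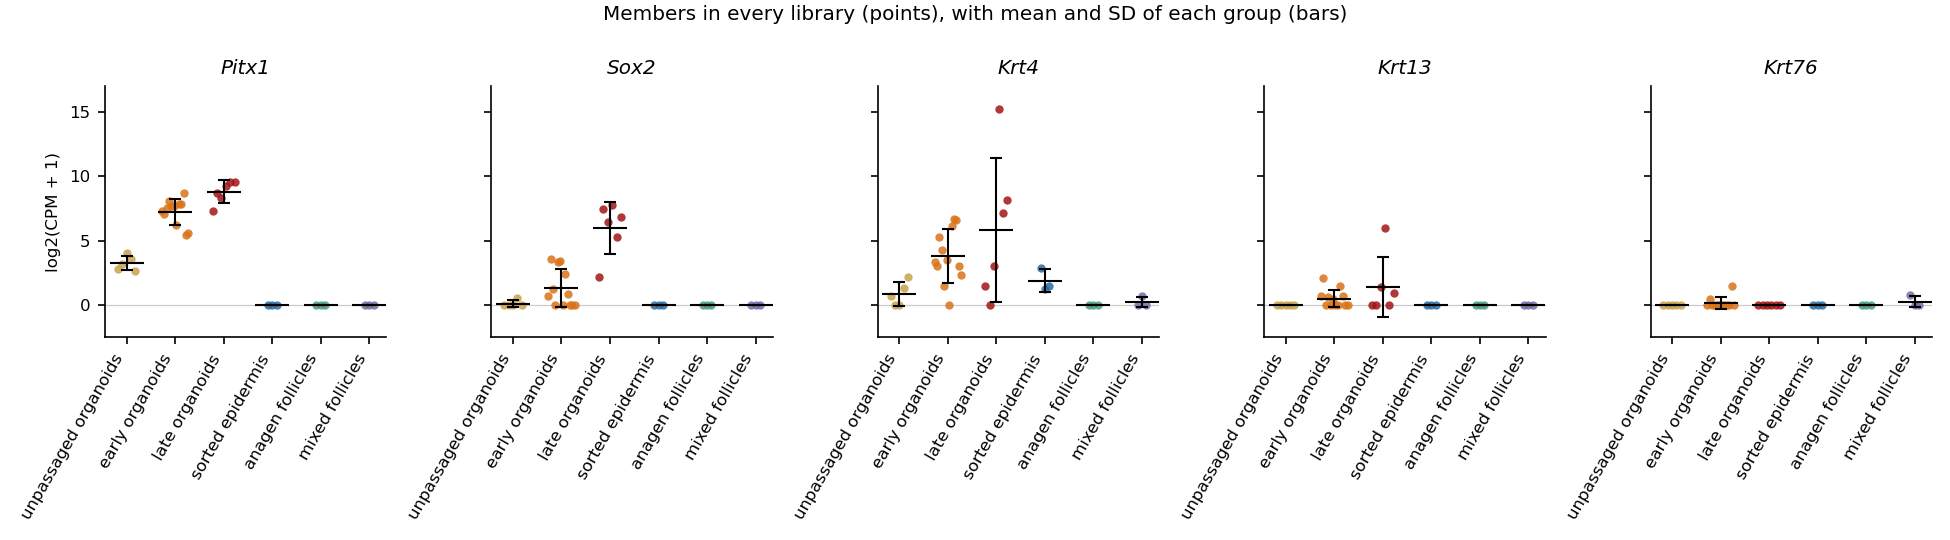
Level of the 5 genes in every library, as log2(CPM + 1), by stage of culture and tissue. Points are libraries and bars are mean ± SD. Pitx1 lies at 0 in all 9 tissue libraries, Sox2 lies between 37.1 and 216 CPM in 5 of the 6 late libraries and at 3.59 CPM in the other, and Krt4 reaches its highest value, 38938 CPM, in 1 late library.

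A count of 0 in the tissue sets only an upper limit. Against a floor of 3 counts over all libraries of the tissue group, mean Pitx1 in unpassaged organoids was at least 5.38-fold higher than in sorted epidermis, at least 17.001-fold higher than in anagen follicles and at least 18.9-fold higher than in mixed follicles. The same bounds were 106-, 336- and 373-fold for early organoids and 292-, 922- and 1023-fold for late organoids. Within 1 source table, early Pitx1 was 155 CPM against 7.996 CPM unpassaged with Fgf10, a ratio of 19.4, and 136 CPM against 15.6 CPM unpassaged with Fgf1, a ratio of 8.74. Over all 12 early libraries the ratio to the unpassaged library of the same medium ran between 6.52 and 37.1. Ranked by count within its library, with 1 the highest gene, Pitx1 stood between 5737 and 8465 in unpassaged, between 366 and 3120 in early and between 207 and 1077 in late organoids. The annotated genes Gm47071, on the opposite strand, and Gm28760, on the same strand, overlap Pitx1, and neither is named in the count files. The sources used here do not say whether reads were counted by strand.

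Of the 4 measured genes beside Pitx1, 3 were detected in organoids and in each tissue, at levels that differed between tissues. These genes have starts within 200 kb. Pcbd2 averaged 63.0 CPM in unpassaged, 81.7 CPM in early and 58.7 CPM in late organoids, against 34.7 CPM in sorted epidermis, 10.5 CPM in anagen and 10.2 CPM in mixed follicles. Txndc15 averaged 39.0 CPM in unpassaged, 42.2 CPM in early and 42.7 CPM in late organoids, against 68.3 CPM in sorted epidermis, 12.5 CPM in anagen and 4.33 CPM in mixed follicles. B230219D22Rik averaged 81.6 CPM in unpassaged, 70.6 CPM in early and 96.9 CPM in late organoids, against 75.2 CPM in sorted epidermis, 68.8 CPM in anagen and 34.3 CPM in mixed follicles, and Catsper3 reached at most 1.17 CPM in early organoids.

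Among early organoids, Pitx1 was lowest in the libraries without forskolin, but the difference did not pass the test over all genes. In early organoids with forskolin and the inhibitor Pitx1 had 72.2, 229, 234 and 411 CPM, against 41.8 and 46.4 CPM with the inhibitor alone. The groups did not overlap, and the means of 236 ± 138 (SD, n = 4) and 44.1 ± 3.29 CPM (SD, n = 2) differed 5.36-fold. The log2 fold change was 2.42 ± 0.71 (SE) with an unadjusted p of 0.00291 and an adjusted p of 0.395 (edgeR quasi-likelihood test, Benjamini-Hochberg over all genes). In that comparison edgeR called 0 of 9919 genes, 0%, with 623 at an unadjusted p under 0.05, and DESeq2 called 24. The adjusted p of Pitx1 ran between 0.0582 and 1 over the alternative settings.

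The 2 growth factors gave similar ranges of Pitx1. With forskolin and Fgf1 early organoids had 136 and 204 CPM, against 155, 182, 269.8 and 208 CPM with forskolin and Fgf10, and the groups overlapped. The log2 fold change was -0.34 ± 0.62 (SE, edgeR adjusted p = 1). With forskolin and the inhibitor, whose 4 values are given above, Pitx1 differed from forskolin with Fgf10 by 0.15 ± 0.50 on the log2 scale (SE, edgeR adjusted p = 1). In Fgf1 against Fgf10, edgeR called 0 of 9919 genes, 0%, with 328 at an unadjusted p under 0.05 and 15 called by DESeq2, and in the inhibitor against Fgf10 it called 57, or 0.575%.

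**Figure D2:**
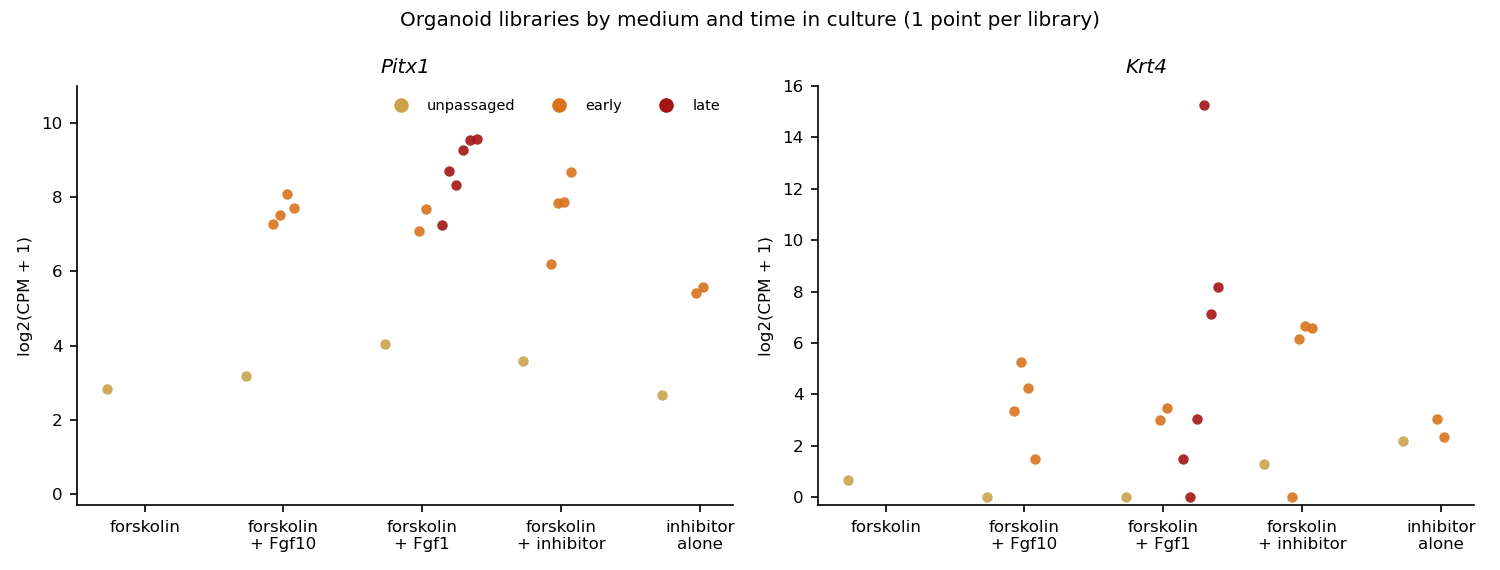
Pitx1 and Krt4, as log2(CPM + 1), by medium and stage of culture. Each point is 1 library; the 4 early libraries with forskolin and inhibitor, at 72.2 to 411 CPM of Pitx1, lie above the 2 with the inhibitor alone, at 41.8 and 46.4 CPM.

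Sox2 was higher in late organoids than in each of the 3 tissues. The 6 late libraries had 3.59, 169.7, 85.4, 216, 37.1 and 113 CPM, a mean of 104 ± 79.8 CPM (SD, n = 6), and no tissue library held a count. Late Sox2 was at least 60.8-fold higher than in sorted epidermis, at least 192-fold higher than in anagen follicles and at least 213-fold higher than in mixed follicles, against the floor of 3 counts over each group. The edgeR adjusted p-values were 0.00253, 0.000348 and 0.000626, and their highest values over all alternative settings were 0.0151, 0.00225 and 0.00581. In these comparisons 21.8%, 45.8% and 39.7% of all 10843 genes tested were called. Sox2 and Krt4, with at most 3 counts in any tissue library, passed the filter on low counts only through the organoid libraries. Krt13 and Krt76 did not pass it. Nothing is therefore read from how many members were called.

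Sox2 was near or at 0 earlier in culture. In early organoids 7 of 12 libraries held a count, with a lowest value of 0, a median of 0.721 and a highest value of 10.7 CPM. The 2 early libraries with forskolin and Fgf1 had 10.7 and 9.76 CPM, those with forskolin and Fgf10 had 0.586, 1.34, 0 and 9.21 CPM, those with forskolin and inhibitor had 0, 4.29, 0.856 and 0 CPM, and both with the inhibitor alone had 0. Unpassaged organoids held 1 Sox2 count in all, 0.482 CPM in the library with forskolin and inhibitor. The 2 early Fgf1 libraries lay above all 4 Fgf10 libraries, by 1.80 ± 1.16 on the log2 scale (SE, edgeR adjusted p = 1).

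Sox2 was highest in late organoids, but neither step between stages of culture passed the test. Early Sox2 exceeded unpassaged Sox2 of the same media by 2.94 CPM on average, which did not pass (two-sided exact permutation p = 0.1385, n = 12 and 4). That test exchanged libraries across media and did not match them by medium. Late Sox2 exceeded early Sox2 in forskolin with Fgf1 by 3.26 ± 1.13 on the log2 scale (SE, edgeR adjusted p = 0.0882), with 5 of 6 late libraries above both early ones. The difference passed without late replicate 1, at 3.59 CPM (adjusted p = 0.0326), without the source table of late replicates 1 and 2 (0.0290, chosen after seeing the data) and with no filter on low counts (0.0328), and the adjusted p ran between 0.029 and 0.378 over the alternatives. In late against early organoids with Fgf1 edgeR called 6.71% of 9919 genes, and of the 2 members tested other than Pitx1, Sox2 and Krt4, it called 0.

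The gene lies at chr3:34650405-34652461 on the plus strand, inside the long non-coding transcript Sox2ot on the same strand. Sox2ot itself stood at 0 to 0.537 CPM in early organoids, 0 to 1.30 CPM in late organoids, at most 1.03 CPM in anagen follicles and at most 0.722 CPM in mixed follicles. The other skin cells known for Sox2 were looked for by their markers. The 5 Merkel cell genes summed to 0 to 7.81 CPM in late organoids, with Atoh1 and Rab3c at 0 in all 6, Isl1 at 7.81 CPM in replicate 4 and 0.952 CPM in replicate 6, and Krt20 at 3.84 CPM in replicate 3, and to 0 to 2.70 CPM in sorted epidermis. The 7 dermal papilla genes summed to 2.60 to 35.9 CPM in late organoids and 0 to 2.13 CPM in sorted epidermis, and Enpp2, an enzyme that makes lysophosphatidic acid, made up 2.60 to 32.4 CPM of it and was the 1 gene of the list tested, with an edgeR adjusted p of 0.00870. The 6 Schwann cell and melanocyte genes summed to 0 to 3.59 CPM in late organoids, with Sox10, Dct and Tyrp1 at 0, and to 1.35 to 8.51 CPM in sorted epidermis. The part of these cells in the Sox2 counts was not tested.

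Krt4 was higher on average in early than in unpassaged organoids, and it varied widely between libraries and media. The gene lies at chr15:101918535-101924735 on the minus strand. Early organoids had 9.38, 36.9, 18.1 and 1.84 CPM with forskolin and Fgf10, 6.98 and 10.1 CPM with forskolin and Fgf1, 0, 69.8, 101.4 and 94.3 CPM with forskolin and inhibitor, and 7.26 and 4.14 CPM with the inhibitor alone. Unpassaged organoids had 0.612 CPM with forskolin, 0 with Fgf10 or Fgf1 added, 1.44 with the inhibitor added and 3.59 CPM with the inhibitor alone. In the same media early organoids exceeded unpassaged ones by 3.94 ± 1.15 on the log2 scale (SE, edgeR adjusted p = 0.0357), with overlap between the groups. With the inhibitor alone the early values were 2.02- and 1.15-fold the unpassaged one. With forskolin and inhibitor 1 early library, at 0, lay below the unpassaged one. Among all 8890 genes tested there 11.8% were called. The 4 unpassaged libraries held 0, 0, 3 and 8 Krt4 counts, so Krt4 passed the filter on low counts only through the early libraries, and nothing is read from its call against that share. Within the source table that holds both stages the difference was 6.81 with an adjusted p of 0.0239. The call was lost without the unpassaged library with Fgf10 (adjusted p = 0.150), with Fgf1 (0.0669) or with forskolin and inhibitor (0.193), and without early Fgf1 replicate 2 (0.0520). In all, the Krt4 call was lost under 5 alternatives. Its edgeR adjusted p ran between 8.54e-14 and 0.362 over the alternatives, with the highest under a setting other than those just named.

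In late organoids Krt4 stood at 1.80, 0, 7.35, 38938, 138 and 288 CPM. Replicate 4 had 29922 Krt4 counts of 768443, or 3.89% of the library (95% Clopper-Pearson interval 3.85 to 3.94, counting error only), more than any other gene in it. Without that library the late mean was 86.9 CPM, against 6562 ± 15861 CPM with it (SD, n = 6). Sorted epidermis had 6.39, 1.35 and 1.85 CPM, anagen follicles 0, and mixed follicles at most 0.597 CPM. Late replicates 3 to 6 lay above every tissue library, and replicates 1 and 2 fell within the range of the tissue.

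Late against sorted epidermis, Krt4 differed by 11.26 ± 3.53 on the log2 scale (SE, edgeR adjusted p = 0.0318), and without late replicate 4 by 5.25 with an adjusted p of 0.0340. That call was lost without any 1 of the sorted libraries (adjusted p = 0.0994, 0.120 and 0.108), with the source table of late replicates 4 and 5 left out (5.02, 0.0538), with only the 2 groups fitted (0.0787) and with libraries thinned to equal depth (0.0516). Over all alternatives the adjusted p ran between 1.14e-05 and 0.837. Against mixed follicles the difference was 13.41 ± 3.91 (SE, adjusted p = 0.0124), and without late replicate 4 it was 7.35 (0.00712); it was lost without mixed replicate 1 (0.0538) or 2 (0.0650). Against anagen follicles, which held no count, the late mean was at least 12091-fold higher (adjusted p = 0.00776), and at least 160.1-fold higher without late replicate 4 (0.00287). Late against early organoids with Fgf1 the difference of 9.48 ± 3.78 (SE) did not pass, with an adjusted p of 0.129, nor without late replicate 4, at 3.44 with an adjusted p of 0.193. It passed with no filter on low counts (0.0457) and without the source table of late replicates 1 and 2 (0.0475), and the adjusted p ran between 0.0457 and 0.878.

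Early and unpassaged organoids were not separated from sorted epidermis in Krt4 by the test. Early organoids exceeded it by 2.67 on the log2 scale (edgeR adjusted p = 0.417) and unpassaged organoids differed by -0.90 (adjusted p = 0.863). For Sox2 in early organoids the test could not decide, with an SE of 1.87e+04 on the log2 scale. Sorted epidermis and the early libraries with the inhibitor alone held no Sox2 count. In unpassaged organoids, with 1 count in all, Sox2 did not pass (edgeR adjusted p = 0.825). Of all 11191 genes 40% were called in early organoids and 35.5% in unpassaged organoids against sorted epidermis. Between media Krt4 did not pass either, with an adjusted p of 0.951 for forskolin with inhibitor against inhibitor alone, where the 4 libraries with forskolin had 0, 69.8, 101.4 and 94.3 CPM and the 2 without it 7.26 and 4.14 CPM. The adjusted p was 1 for Fgf1 against Fgf10 and 0.966 for the inhibitor against Fgf10.

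**Figure D3:**
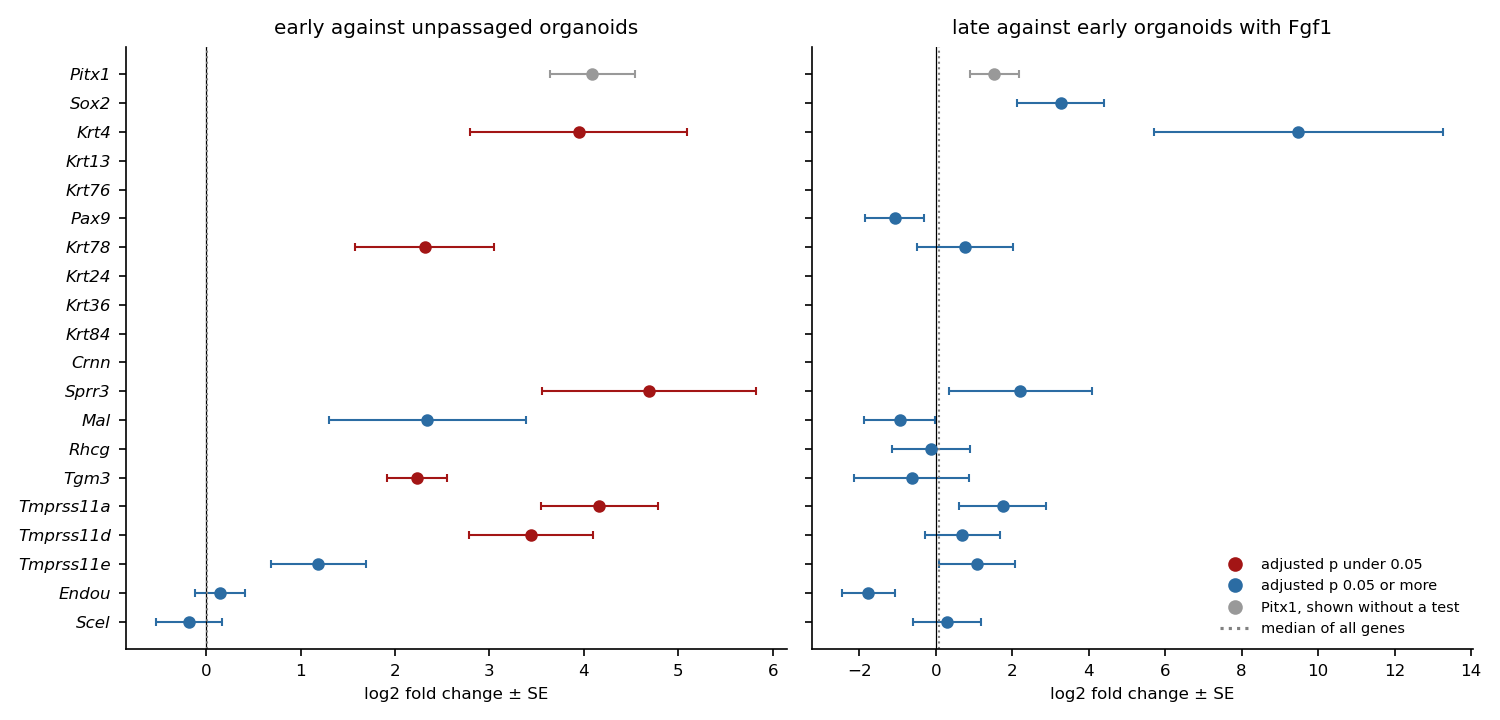
Log2 fold change ± SE of members and oral genes in early against unpassaged organoids and in late against early organoids with Fgf1. Red marks an edgeR adjusted p under 0.05, blue one at or over it, grey is Pitx1, given without a test, and the dotted line is the median of all genes. Krt4 is red at 3.94 in the first panel, and no member is red in the second.

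Krt13, the partner of Krt4, was close to the limit of detection. The gene lies at chr11:100117327-100121566 on the minus strand. The late libraries had 0, 0, 1.60, 62.5, 0 and 0.952 CPM, early libraries at most 3.29 CPM with 6 of 12 holding a count, and unpassaged organoids and tissue had none. The late mean exceeded the tissue groups by 10.8 CPM, which rests on replicate 4 (two-sided exact permutation p = 0.476, n = 6 and 3, against each tissue). Against early organoids with Fgf1 the p was 0.714 (exact permutation test). For early against unpassaged organoids it was 0.231 (exact permutation test, with libraries exchanged across media). The smallest p that these group sizes allow was 0.0238 for 6 against 3, 0.0714 for 6 against 2 and 0.0011 for 12 against 4 libraries.

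Krt76 was hardly detected. The gene lies at chr15:101884351-101892920 on the minus strand, and the microRNA gene Gm44356 overlaps it on the opposite strand and is not named in the count files. Early organoids held 3 counts, 1 in forskolin with Fgf1 replicate 1 (0.411 CPM) and 2 in the inhibitor alone replicate 1 (1.82 CPM). Mixed follicles held 1 count (0.716 CPM), and late and unpassaged organoids, sorted epidermis and anagen follicles held none. Krt13 and Krt76 fell under the filter on low counts in every comparison, as did Sox2 in early against unpassaged organoids. Of the 17 exact permutation tests on these genes 0 gave a p under 0.05. Some of them could not: the smallest p was 0.0714 for 6 against 2 libraries and 0.1 for 3 against 3. It was 0.133 for 2 against 4 and for 4 against 2. Nothing is read from the total of these tests. Pitx1, Sox2 and Krt13 had no count in either follicle group, and Krt4 and Krt76 did not pass in anagen against mixed follicles, where 6.63% of 10843 genes were called. Of 25 edgeR tests on the members, leaving out Pitx1 where its rise chose it, 7 passed, all of Sox2 or Krt4. The share of all genes called ran between 0% and 45.8% over the comparisons. The 25 include Pitx1 and Sox2 in anagen against mixed follicles, with no count in either group. They also include Sox2 in early organoids against sorted epidermis, where the test could not decide. Nothing is read from the number that passed.

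A wider list of 16 genes known from oral and oesophageal lining was measured beside the members. Of these, 9 averaged at least 10 CPM in 1 or more of the skin tissue groups, and 1, Sprr3, had no count in any of the 9 tissue libraries. In early against unpassaged organoids 5 of the 16 rose, 4 were tested and did not pass, 0 fell and 7 were under the filter on low counts. Of all genes 5.69% were called higher and 6.13% lower. Of the 5 that rose, Sprr3, Tmprss11a, Tmprss11d and Krt78 stood at 0 to 5.51 CPM in unpassaged organoids and passed the filter through the early libraries, so the count is a description and is not set against those shares. Sprr3, a small proline-rich protein of the cornified envelope in oral and oesophageal cells, rose by 4.69 ± 1.14 (SE, adjusted p = 0.0148). The genes of 2 membrane-bound serine proteases, Tmprss11a and Tmprss11d, rose by 4.16 ± 0.62 (SE, adjusted p = 0.000825) and 3.44 ± 0.66 (SE, adjusted p = 0.00419). The keratin Krt78 rose by 2.32 ± 0.73 (SE, adjusted p = 0.0481) and Tgm3, a transglutaminase that cross-links the cornified envelope, by 2.23 ± 0.32 (SE, adjusted p = 0.000622), all in edgeR's quasi-likelihood test.

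Within the source table of the unpassaged libraries, Sprr3 and Tmprss11a were higher in both early libraries. Sprr3 was 229 CPM in the early and 0 in the unpassaged library with Fgf1 from the same source table, and 75.6 CPM early against 1.45 CPM unpassaged with Fgf10. Tmprss11a was 25.5 CPM in the early and 0.972 CPM in the unpassaged library with Fgf1, and 15.8 CPM against 0 with Fgf10. The Sprr3 call was lost without the unpassaged library with Fgf10 (adjusted p = 0.0959) or with Fgf1 (0.0625), and its adjusted p ran between 4.61e-24 and 0.0959 over the alternatives. The Krt78 call lay at the threshold and was lost when any 1 of 11 of the 16 libraries was left out (adjusted p = 0.0507 to 0.294, the highest without the unpassaged library with Fgf10). Tmprss11a kept its call under every alternative, with a highest adjusted p of 0.0239. The skin genes moved in the same comparison. Lor, which encodes loricrin of the cornified envelope, rose by 3.11 ± 0.79 (SE, adjusted p = 0.0183) and Krt1 by 2.56 ± 0.79 (SE, adjusted p = 0.0435), 2 of 6 tested cornified-layer genes, and the basal integrin Itga6 fell by 1.02 (adjusted p = 0.0122) and the basal factor Trp63 by 0.98 (adjusted p = 0.0295), 2 of 7 basal genes. The Lor call was lost without the unpassaged library with Fgf10 (adjusted p = 0.0986), with Fgf1 (0.0535) or with the inhibitor alone (0.0523), the Itga6 call without the one with Fgf10 (0.127) or Fgf1 (0.0566), and the Krt1 and Trp63 calls without any 1 of 12 and 5 libraries (at most 0.182 and 0.127). Trp63 also lost it with libraries thinned to equal depth (0.1) and within the source table of the unpassaged libraries (-0.17, 0.799). The part of the share of suprabasal cells in the rise of Krt4 and the oral genes was not tested. In tissue, Sprr3 had no count and Tmprss11a had 1, in mixed follicles.

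Against sorted epidermis, 14 oral genes were tested in late organoids, of which 5 rose and 1 fell, where 12.2% of all genes were called higher and 9.53% lower. The other 8 tested did not pass and 2 were under the filter on low counts. Sprr3, Tmprss11a and Tmprss11d, at no more than 0.722 CPM in any tissue library, passed that filter only through the organoid libraries. The count is therefore a description. Sprr3 was at least 437-fold, Tmprss11a at least 38.3-fold and Tmprss11d at least 21.6-fold higher, with edgeR adjusted p-values of 0.0283, 0.0188 and 0.00692. Without late replicate 4 the Sprr3 bound was 95.8-fold. Tmprss11e, a further protease of that family, rose by 6.06 ± 1.59 on the log2 scale (SE, adjusted p = 0.0113), and Endou by 5.47 ± 1.13 (SE, adjusted p = 0.00228). Scel, which encodes sciellin of the cornified envelope, fell by 2.31 ± 0.69 (SE, adjusted p = 0.0232). The Sprr3 and Tmprss11a calls were lost without any 1 sorted library, with adjusted p-values of 0.0813 to 0.0930 and 0.0594 to 0.0732, and the Tmprss11e call likewise (0.0513 to 0.0521).

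In early organoids against sorted epidermis 4 of 14 tested oral genes rose, Tmprss11d, Endou, Tmprss11e and Tgm3, and Scel fell. Of all genes 18.9% were called higher and 21.1% lower. Tmprss11d had no count in sorted epidermis and passed the filter on low counts through the organoid libraries. The oral count is therefore a description. The Tgm3 call was lost without any 1 sorted library (edgeR adjusted p = 0.0613 to 0.0921). In that comparison Lor rose by 5.94, the desmosomal cadherin Dsc1 by 4.05 and all 4 wound keratins by 2.11 to 8.86 on the log2 scale, while the basal genes Krt15, Col17a1, Trp63 and Itga6 fell by 6.33, 2.64, 1.58 and 1.36, Krt77 fell by 5.70 and Krt14 rose by 1.41 (edgeR adjusted p of at most 0.00979). The Dsc1 call was lost without sorted replicate 2 (0.0558) and the Krt77 call with DESeq2 (0.429), and the part of the layers these genes mark in the oral gene levels was not tested. In unpassaged organoids against sorted epidermis 1 of 14 rose, Endou, by 7.38 ± 1.02 (SE, edgeR adjusted p = 3.13e-06), and Scel fell, beside 18.3% of all genes called higher and 17.2% lower. All 4 wound keratins rose there too, by 2.48 to 9.10 on the log2 scale (edgeR adjusted p of at most 0.000682). Endou thus stood at 175 to 429 CPM in unpassaged organoids, against 0 to 3.70 CPM in sorted epidermis, when Sprr3 was still at 0 to 5.51 CPM. Follicles held Endou at a like level, 226.5 to 368.9 CPM in anagen and 225.2 to 255.4 CPM in mixed follicles. Against follicles the list was mixed: in late organoids 5 rose and 5 fell against anagen follicles, and 3 rose and 5 fell against mixed follicles, of 14 tested in each. Sprr3 and Tmprss11a, with no count in anagen follicles, passed the filter on low counts through the organoid libraries. These counts are therefore a description. Of all genes 21.2% were called higher and 24.6% lower against anagen follicles, and 17.2% higher and 22.5% lower against mixed follicles. Follicles carry some genes of the oral list themselves, and Krt36 averaged 201 CPM in anagen and 1920 CPM in mixed follicles. Over both follicle groups Tmprss11e stood at 33.7 to 86.5 CPM and Tgm3 at 163.9 to 722.8 CPM. Late against early organoids with Fgf1, 0 of 11 passed, where 6.71% of all 9919 genes were called. In each of the 3 comparisons of media 0 of 11 passed too. Of all genes, 0% were called in Fgf1 against Fgf10 and 0.575% in inhibitor against Fgf10. Forskolin with inhibitor against inhibitor alone gave 0%. Nothing is read from these counts of 0.

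**Figure D4:**
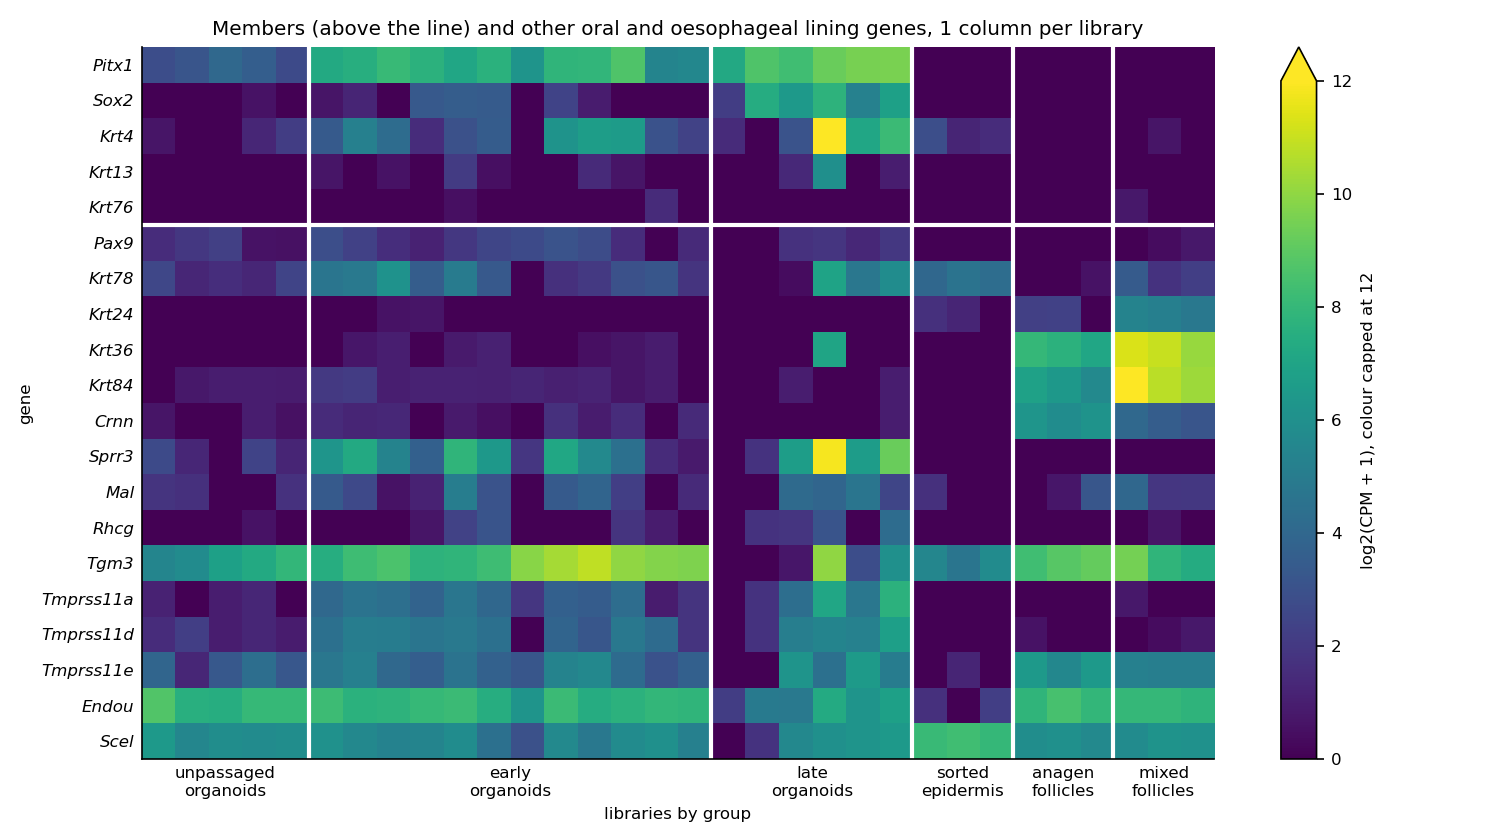
Level of the 5 members and 15 genes of the oral list in all 32 libraries, as log2(CPM + 1), with the colour scale ending at 12. Pitx1 is coloured in all organoid libraries and empty in tissue, Sprr3 is empty in all 9 tissue libraries, and Krt36 is coloured in follicles.

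The 6 late libraries did not carry the oral genes evenly. Sprr3 stood at 0, 2.42, 100.1, 3672, 99.03 and 620.0 CPM in replicates 1 to 6, and Tmprss11a at 0, 2.42, 19.5, 137, 26.3 and 209 CPM. Replicate 3 thus lay beside replicate 5 in both. The epidermal suprabasal genes divided otherwise, replicates 1 to 3 from 4 to 6, with Krt10 at 12.6, 2.42, 26.2, 5911, 941 and 5285 CPM and Krt1 at 0, 2.42, 6.40, 6023, 569 and 2342 CPM. Lor had 8.99, 7.27, 17.6, 6242, 918 and 2794 CPM. Replicates 1 to 3 were thus low in Krt4, Krt1, Krt10 and Lor, while replicates 2 and 3 held 417 and 318 CPM of Pitx1 and 169.7 and 85.4 CPM of Sox2. Sorted epidermis had 1366, 1704 and 1519 CPM of Krt10. The part of the share of suprabasal cells in the Krt4 and Sprr3 levels was not tested, and since the sort took Itga6-positive cells, which are basal, the sort and culture cannot be told apart for suprabasal genes against sorted epidermis.

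**Figure D5:**
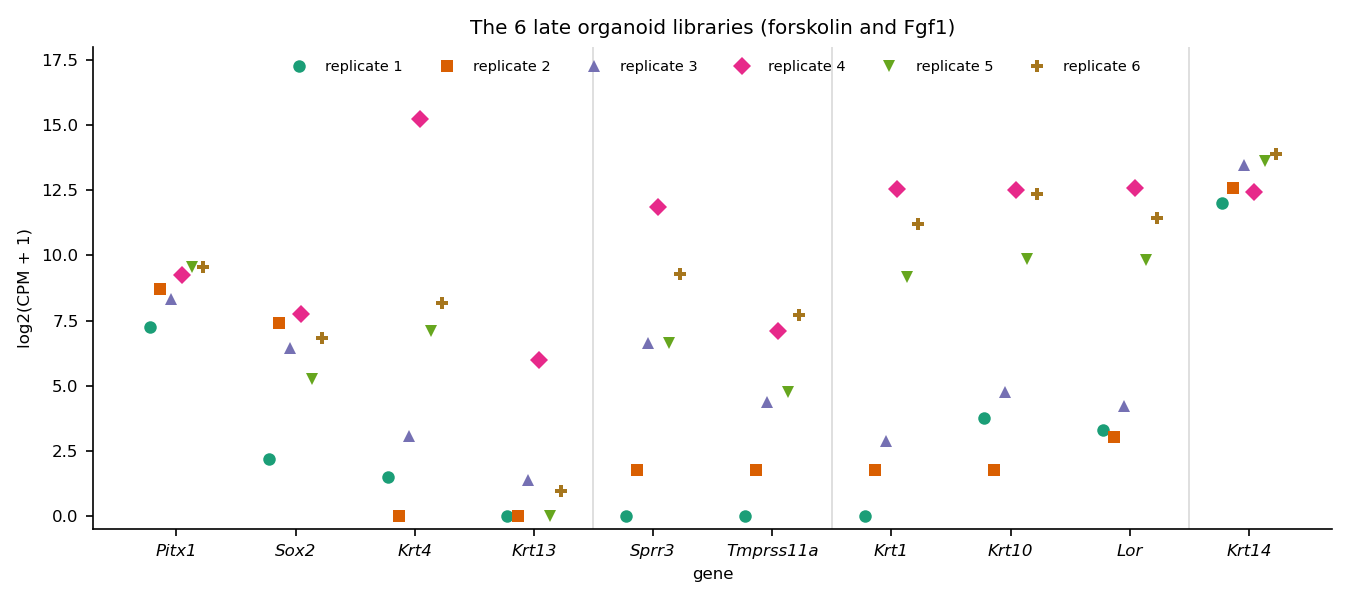
Level of Pitx1, Sox2, Krt4, Krt13, 2 oral genes and 4 skin genes in each of the 6 late libraries, as log2(CPM + 1). Pitx1 is at 153 CPM or more in all 6, while Krt4, Krt1, Krt10 and Lor are higher in replicates 4 to 6 than in 1 to 3, Sprr3 is alike in replicates 3 and 5, and Krt14 is present throughout.

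Within a stage, Sox2, Krt4 and 2 oral genes were set against Pitx1 over libraries, on log2(CPM + 1), in 8 relations. The oral genes, Sprr3 and Tmprss11a, had risen with passaging in these same data, and the adjustment covers only the 8 relations. Early libraries gave Pearson's r of 0.64 for Krt4 (permutation p = 0.0269, adjusted 0.0716) and Spearman's rho of 0.71 (permutation p = 0.0122, adjusted 0.0978), and r was 0.77 without the 2 libraries farthest in Pitx1, which are those with the inhibitor alone. For Sox2 r was 0.29 (permutation p = 0.367) and rho 0.10 (permutation p = 0.762), and -0.07 without those libraries. For Tmprss11a r was 0.85 (permutation p = 0.00448, adjusted 0.0358) and rho 0.43 (permutation p = 0.171, adjusted 0.350), with r of 0.58 without them, so the relation by rank did not pass. For Sprr3 r was 0.68 (permutation p = 0.0240, adjusted 0.0716) and rho 0.29 (permutation p = 0.367), and r was 0.24 without them.

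Over the 6 late libraries Sox2 gave r of 0.70 (exact permutation p = 0.200) and rho of 0.37 (exact permutation p = 0.497), and -0.58 without replicates 1 and 3. Krt4 gave r of 0.63 (exact permutation p = 0.136) and rho of 0.66 (exact permutation p = 0.175). Sprr3 gave r of 0.76 (exact permutation p = 0.1) and rho of 0.60 (exact permutation p = 0.242). Tmprss11a gave r of 0.83 (exact permutation p = 0.0472, adjusted 0.0944) and rho of 0.89 (exact permutation p = 0.0333, adjusted 0.133). Of the 8 relations, Tmprss11a in early organoids by Pearson's r was the 1 that passed after adjustment. Tmprss11a had risen with passaging in these same data and is among the genes closest to Pitx1 over all libraries. Nothing is therefore read from that call. The permutations exchanged libraries freely within a stage, although libraries share medium or source table and are not independent points. The early libraries with the inhibitor alone were lowest in both genes, at 41.8 and 46.4 CPM of Pitx1 and 0.908 and 2.49 CPM of Tmprss11a. That call therefore cannot tell a relation between the genes from a difference between media. Within the source table that holds 10 of the 12 early libraries, r and rho were 0.64 and 0.67 for Krt4, 0.36 and 0.11 for Sox2, 0.78 and 0.45 for Sprr3, and 0.93 and 0.61 for Tmprss11a. The other tables hold too few early or late libraries for a value.

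The genes whose levels lay closest to Pitx1 were ranked by Spearman's rho over libraries, among genes averaging at least 10 CPM, as a description. Over all 32 libraries these were Rab24 at 0.891, Runx2 at 0.885, Tmprss11a at 0.869, Got2 at 0.868 and Eya2 at 0.857, of 7652 genes, with Sox2 at rank 44 (0.769) and Krt4 at rank 108 (0.716). Runx2, a runt-domain transcription factor known from bone, stood at 7.64 to 16.5 CPM in unpassaged, 8.17 to 60.1 CPM in early and 50.8 to 344 CPM in late organoids, against 2.70 to 11.1 CPM in sorted epidermis. Eya2, a transcriptional cofactor with phosphatase activity, stood at 2.45 to 14.5 CPM in unpassaged, 1.82 to 26.5 CPM in early and 22.1 to 269 CPM in late organoids, against 0 in sorted epidermis. Over the 23 organoid libraries the closest were Vps51 at 0.810, Plcg2 at 0.797, Pla2g12a and Zer1 at 0.788 and Rab24 at 0.768, of 7330 genes, with Sox2 at rank 19 (0.706) and Krt4 at rank 24 (0.698). Libraries share stage, medium and source table, so they are not independent points. By Pearson's r on log2 values the closest gene was Cdkn2a (0.927) over all libraries and Trp53inp1 (0.815) over organoids, so the closest genes differ with the measure. By that measure Sox2 and Krt4 were at ranks 349 (0.668) and 462 (0.639) over all libraries and at ranks 31 (0.677) and 58 (0.622) over organoids.

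Genes that mark where on the body or in which lining Pitx1 is otherwise known were also read. Tbx4, a hindlimb factor that acts downstream of Pitx1 in the limb, and Hoxc11 were at 0 in all 23 organoid libraries, and Hoxc10 at 0 in all 6 late ones. Hoxc8 stood at 16.9 to 236 CPM in late organoids against 40.4 to 55.5 CPM in sorted epidermis. It was the 1 of 2 tested limb-position genes that rose (log2 fold change 1.67 ± 0.55 SE, edgeR adjusted p = 0.0390), beside 12.2% of all genes called higher. That call was lost without any 1 sorted library (0.0894 to 0.138), without late replicate 1, 3 or 5 (0.0559 to 0.0699) and under upper-quartile scaling (0.0510). Pax9, a factor of the mouth and pharynx, stood at 0.449 to 3.89 CPM in unpassaged, 0 to 7.51 CPM in early and 0 to 2.86 CPM in late organoids, against 0 in sorted epidermis.

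The skin lists moved as follows in late organoids against sorted epidermis, where 12.2% of all 10843 genes were called higher and 9.53% lower. The lists are short, so their counts are a description. All 4 keratins of wounded or activated epidermis rose, Krt6b, Krt6a, Krt16 and Krt17, by 6.67, 6.31, 4.60 and 2.25 on the log2 scale, with Krt6a and Krt6b uncertain because they are near-identical copies. The Krt16 call, at an edgeR adjusted p of 0.0499, was lost without sorted replicate 1 or 2 or late replicate 3, 4, 5 or 6 (0.0547 to 0.168), and the Krt6b call without sorted replicate 1 or 2 (0.0936 and 0.0844). Of 7 basal genes 0 rose and 2 fell, Krt15 by 5.21 and Col17a1 by 1.56, and the Col17a1 call was lost without sorted replicate 1 or 2 or late replicate 3 or 6 (0.0521 to 0.128). Of 8 cornified-layer genes Lor rose by 4.93 and Krt77 fell by 6.57, and the Lor call, at 0.0499, was lost without any 1 sorted library or late replicate 4, 5 or 6 (0.0605 to 0.158), and with RLE (0.0502) or upper-quartile scaling (0.0527). The 6 fibroblast genes summed to 202 to 1116 CPM in late organoids and 70.2 to 131 CPM in sorted epidermis, with Sparc the 1 of 5 tested that rose. The 4 immune genes summed to 0 to 2.24 CPM in late organoids and 148 to 298 CPM in sorted epidermis, and the 3 tested, H2-Aa, Cd74 and Ptprc, all fell. Krt18 of simple epithelia rose, at 0 to 111 CPM in late organoids against 0 in sorted epidermis (edgeR adjusted p = 0.0242), the 1 of 2 tested of its list. Their part in the levels of the members was not tested.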

How the data were processed

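The members and gene lists were chosen with earlier results of these data known. Libraries were made by CEL-seq2, which counts transcript 3′ ends, and the submitters' processing notes name BWA 0.6.2-r126 and the mouse build mm10. The authors deposited whole-number counts per gene, 1 table per library, with 0 non-whole values found; the deposited counts of 4 names with 2 entries were summed. Reads with no gene were not analysed here, and totals exclude the 14 spike-in names. CPM is the count over that total, and a gene that a table does not list is 0. 1 gene of the list of oral genes counts in that list and is not reported here by name.

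Counts were tested with edgeR 4.0.16 (limma 3.58.1, R 4.3.3): TMM scaling, filterByExpr with a minimum count of 10 and a minimum total of 15, glmQLFit and glmQLFTest, Benjamini-Hochberg adjustment over all genes, and a threshold of 0.05. The tissue comparisons of late organoids were fitted on 17 libraries, those of early and unpassaged organoids on all 32, comparisons among passaged organoids on 18, and early against unpassaged organoids on 16 with medium as a covariate. Members under the filter were tested by an exact permutation test on CPM, with no term for medium. DESeq2 1.42.0 was an alternative. The code was tested on simulated counts. Replicates of a group differed beyond sampling noise, with a chi-square per degree of freedom of 3.47 to 69.5. The text names the members, up to 4 genes of a list with the largest changes past the test, reference genes of skin, the genes most like Pitx1 and its neighbours; Tgm3, Endou, Scel, Krt1, Krt36, Cdkn2a, Trp53inp1 and the counted markers at 0 were added after their values were seen.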

Additional observations from a re-analysis of the deposited data

Results flagged for a closer look

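In 3 of the 12 combinations of a member and a group of 4 or more libraries that were examined, 1 library lay far from the others. Chance gives such a gap in about 1 in 20 where values are normally spread, whereas these are skewed, several near 0, and the combinations share libraries. Sox2 stood at 9.21 CPM in replicate 4 of the early organoids with forskolin and Fgf10, where the other 3 had at most 1.34 CPM. Krt4 stood at 38938 CPM in replicate 4 of the late organoids, where the next library had 288 CPM. Krt13 stood at 62.5 CPM in that same late library, where the next had 1.60 CPM. The same library had 613 CPM of Pitx1, between the values of the other late libraries, and 3672 CPM of Sprr3. It also had 458 CPM of the fibroblast gene Dcn, against at most 7.19 CPM in the other late libraries, and 127.5 CPM of Krt36, against 0 in them; their part in the Krt4 and Krt13 levels was not tested.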

How the results depend on the processing

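Depth limits Krt13, Krt76 and early Sox2, which rest on few counts. Of the named-gene values under settings other than a left-out replicate, 833 kept direction and side of the threshold, 4 passed it only there, 48 no longer passed and 3 reversed. With 1 replicate left out, 1243 kept both, 1 passed only there, 118 no longer passed and 0 reversed. Same-numbered libraries had a median correlation of 0.01 over 26 tissue pairs and -0.01 over 26 passaged pairs, and the main fits did not use the numbers as pairs. The highest values were 0.219 and 0.461, against 0.207 and 0.351 for pairs with different numbers. A median cannot tell whether some libraries are paired. With a replicate block Flg2 and Krt1 in late organoids against anagen follicles were -0.21 and -2.19, and Lor in late organoids against sorted epidermis was -2.46, all reversed; the block also gave 87 calls in early against unpassaged organoids and 33 in forskolin with inhibitor against inhibitor alone. Under the block Krt4 did not pass in late organoids against sorted epidermis (adjusted p = 0.837) or mixed follicles (0.138), nor did Sprr3 (0.0584), Tmprss11d (0.0656), Krt78 (0.172), Lor (0.152), Krt1 (0.277), Itga6 (0.224) or Trp63 (0.408) in early against unpassaged organoids.

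With libraries thinned to equal depth, calls were 3302 in late organoids against anagen and 2755 against mixed follicles, 346 in anagen against mixed follicles, 654 in early against unpassaged organoids, 233 in late against early organoids and 11 in inhibitor against Fgf10. With only the compared groups fitted, calls were 1377 in late organoids against sorted epidermis, 1 in late against early organoids, 43 in Fgf1 against Fgf10, 123 in inhibitor against Fgf10 and 5 in forskolin with inhibitor against inhibitor alone. With no filter, calls were 1663 in early against unpassaged organoids and 3, 115 and 19 in those media comparisons in that order. DESeq2 called 1137 in late against early organoids and 15, 138 and 24 in the media comparisons. The source table of the unpassaged libraries alone gave 433 calls in early against unpassaged organoids, and leaving out the table of late replicates 4 and 5 gave 1055 in late against early organoids. The cause was not tested in any of these.

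Leaving out single replicates gave 1296 to 2547 calls in late organoids against sorted epidermis, 3830 to 5078 against anagen and 3075 to 4525 against mixed follicles, 400 to 662 in anagen against mixed follicles, 3276 to 4430 in early and 2966 to 3826 in unpassaged organoids against sorted epidermis. It gave 184 to 1257 in early against unpassaged organoids, 44 to 1097 in late against early organoids, 0 to 6 in Fgf1 against Fgf10, 17 to 47 in inhibitor against Fgf10 and 0 to 16 in forskolin with inhibitor against inhibitor alone. Upper-quartile scaling moved the median log2 change of all genes by 0.14 in late organoids against anagen follicles and by 0.19 against mixed follicles, and neither it nor RLE scaling moved it by over 0.1 in the other comparisons.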
